A study of Mus musculus with 8 samples.

Results

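Pecam1, Cdh5, Kdr, Tek, Tie1, Eng, Vwf and Emcn, 8 genes by which blood vessel endothelium is usually recognised, were followed in mouse testis RNA with and without CTCFL, a germ cell protein related to CTCF. They were chosen by name, and every probe set whose symbol in the deposited table is that of a listed gene was taken. This gave 10 probe sets of 45101, with 2 probe sets each for Cdh5 and Eng and 1 each for the other 6 genes. RNA came from testes at postnatal day 23, 1 Affymetrix Mouse430_2 array per sample, of which 5 are wildtype by their labels (numbered 1, 2, 4, 6 and 7) and 3 are Ctcfl mutant (numbered 3, 5 and 8). The labels do not say whether samples are separate animals, so p-values measure only the spread between these samples. The study's text describes the mutants as Ctcfl del/del, an allele in which the 5' exons of Ctcfl are removed and GFP coding sequence is joined to what remains, and the controls as Ctcfl del/+ littermates on a C57/Bl6 background. The controls may thus carry 1 deleted allele, and the word wildtype is used here as the labels give it. Ctcfl probe sets were not analysed here, and the labels of genotype were therefore not checked through the deleted gene.

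In the testis, blood vessels run through the interstitium between the seminiferous tubules and do not enter the tubules. Their endothelium brings gonadotropins and oxygen to Leydig, Sertoli and germ cells and carries testosterone away. Endothelial cells hold together through PECAM1 and VE-cadherin (Cdh5), respond to VEGF through KDR and to angiopoietins through the receptor kinases TEK and TIE1, take up BMP signals with the co-receptor endoglin (Eng), store von Willebrand factor (Vwf) for release to platelets and carry the sialomucin endomucin (Emcn) on their surface. Several of these genes are not limited to endothelium. Pecam1 is also made by platelets and leukocytes, Vwf by megakaryocytes and Eng by some macrophages and mesenchymal cells.

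The promoters of the receptor genes Kdr, Tek and Tie1 are shown because these kinases carry the signals that endothelium answers to, and because ETS factors such as ERG and FLI1 are known regulators of vessel genes. The set of RefSeq promoters used here (GRCm38.p6) held 5 of the 8 genes, Kdr, Tek, Tie1, Eng and Emcn. It had no entry for Pecam1, Cdh5 and Vwf, which is a limit of that set. The 250 bases before the annotated start are printed 5' to 3' on the gene's strand, and capitals mark the ETS core GGAA or its reverse complement TTCC. The windows lie at chr5:75978456-75978705 (minus strand) for Kdr, at chr4:94739039-94739288 (plus strand) for Tek and at chr4:118489850-118490099 (minus strand) for Tie1.
Kdr: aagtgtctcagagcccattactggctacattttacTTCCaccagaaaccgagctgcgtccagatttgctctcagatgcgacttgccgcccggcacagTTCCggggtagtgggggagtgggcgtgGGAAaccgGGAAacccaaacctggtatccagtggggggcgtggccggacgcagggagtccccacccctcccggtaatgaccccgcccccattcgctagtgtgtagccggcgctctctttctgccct
Tek: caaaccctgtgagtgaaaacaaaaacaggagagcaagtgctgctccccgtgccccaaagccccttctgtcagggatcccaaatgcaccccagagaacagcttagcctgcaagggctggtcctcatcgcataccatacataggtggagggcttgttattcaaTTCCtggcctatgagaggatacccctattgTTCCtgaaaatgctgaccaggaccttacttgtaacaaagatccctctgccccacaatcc
Tie1: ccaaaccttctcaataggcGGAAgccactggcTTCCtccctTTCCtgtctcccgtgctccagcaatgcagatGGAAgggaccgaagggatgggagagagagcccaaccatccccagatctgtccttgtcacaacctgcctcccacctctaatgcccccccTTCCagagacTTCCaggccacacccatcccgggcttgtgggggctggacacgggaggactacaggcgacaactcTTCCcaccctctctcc
Counted on both strands, the core occurred 4 times in Kdr, 2 times in Tek and 7 times in Tie1, and 3 and 4 times in Eng and Emcn. At least 1 copy is found in 93.4% of 32851 RefSeq promoters of the same length, with a median of 3 copies, so its presence says little. The longer form CCGGAA, held by 12% of all promoters, was found in Kdr alone among the 5. Kdr also differed from the others in its CpG count, 16 against 2 in Tek, 6 in Tie1, 4 in Eng and 1 in Emcn, where the median of all promoters is 6. A match to these letters is a description of the window and not a binding site.

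Before the comparison, the arrays were set against each other. The log2 level of a probe set is background corrected and normalised, and the median level of the 8 arrays lay between 6.40 and 6.45. Spermatid and fat transcripts set wildtype replicate 7 and mutant replicate 8 apart. All 10 spermatid genes of a fixed list, and 8 of 9 fat genes, were higher on both of these arrays than on any of the other 6. Each difference of an endothelial probe set below is therefore also given without these 2 arrays. Whether fewer cells of a type or less RNA per cell lies behind a level cannot be told apart in whole testis RNA. A level also depends on the probes, so the signal of different probe sets was used only to choose which one stands for a gene and which genes of a list are named, and no order of abundance between genes is read from it. Of the 10 endothelial probe sets, 4 lay above and 6 below 6.43, the median of the mean levels of all probe sets. Detection calls were not used, and whether each signal is above background was not tested.

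No difference of the endothelial genes between wildtype and mutant testis was detected. Of the 10 probe sets, 0 passed an adjusted p of 0.05 with limma, as did 0 of all 45101 (0%), and the smallest adjusted p of all probe sets was 1.0. The study reports Prss50 and Gal3st1 as the most lowered genes at this age, and no probe set of any gene passed here. Failing this adjusted test is therefore no evidence that a gene is unchanged. At an unadjusted p under 0.05 there were 0 of 10 in either direction, beside 3.47% of all probe sets (1.7% lower and 1.76% higher in mutant). The wildtype and mutant values overlapped for all 10, and they did not overlap for 2.7% of all probe sets. At shares this small, 0 of 10 would be usual for any 10 probe sets, so neither count sets the members apart. In mutant testis 5 of the 10 were lower and 5 higher, beside 48.5% lower over all probe sets. The median difference, mutant minus wildtype, was -0.0016 on the log2 scale for the 10 probe sets, beside 0.0032 for all. For the 8 main probe sets it was also -0.0016, and -0.012 without wildtype replicate 7 and mutant replicate 8.

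**Figure D1:**
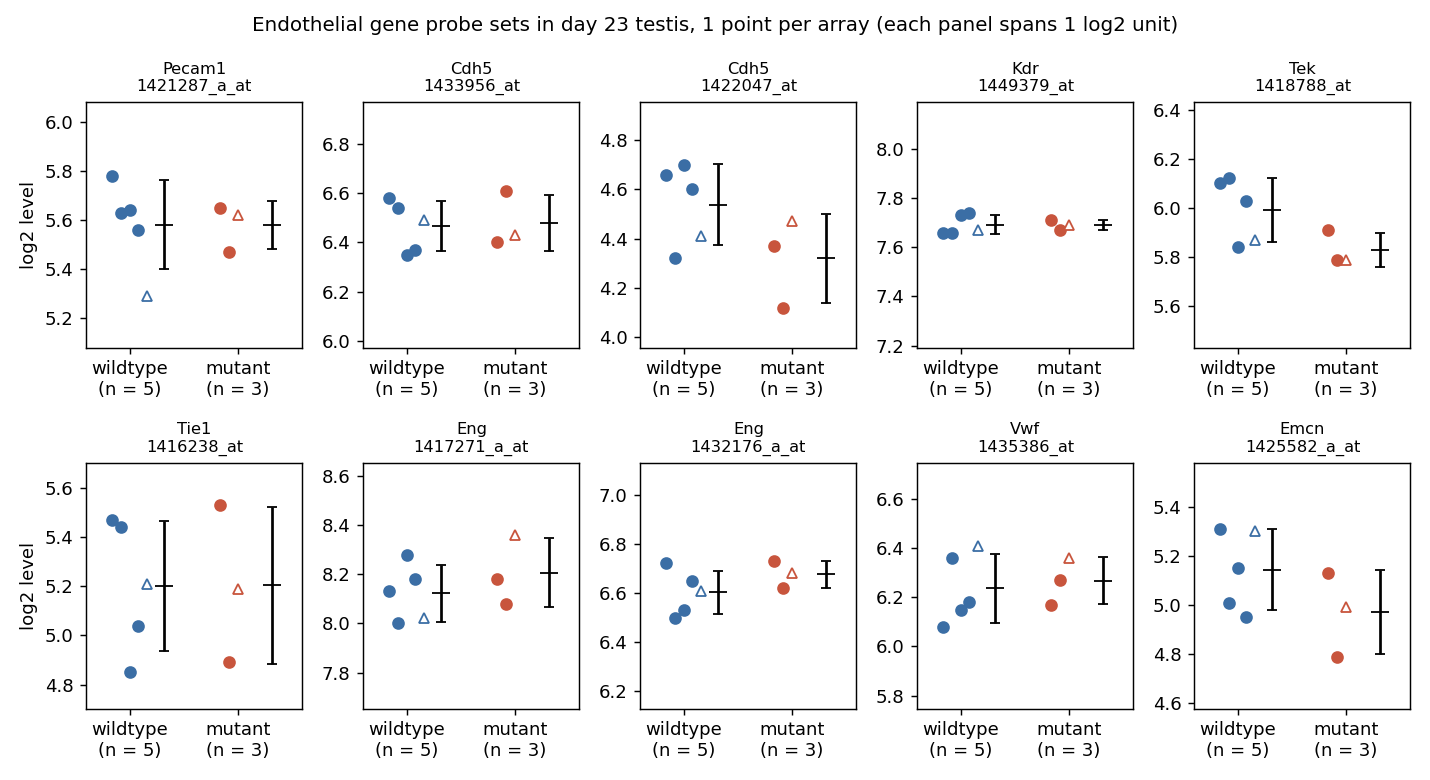
Log2 level of the 10 endothelial probe sets (y axis, each panel spanning 1 log2 unit) in wildtype (5 arrays) and mutant (3 arrays) testis, with 1 point per array, open triangles for wildtype replicate 7 and mutant replicate 8, and bars at the mean ± SD. Wildtype and mutant points overlap in every panel, and Kdr spans only 0.09 over the 8 arrays while Tie1 spans 0.68.

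Pecam1, the junctional adhesion protein CD31, had log2 levels of 5.78, 5.63, 5.64, 5.56 and 5.29 in wildtype replicates 1, 2, 4, 6 and 7 and of 5.65, 5.47 and 5.62 in mutant replicates 3, 5 and 8. The lowest value was that of wildtype replicate 7, and all 3 mutant values lay inside the wildtype range. The means were 5.58 ± 0.18 (SD, n = 5) and 5.58 ± 0.10 (SD, n = 3). The log2 difference was -0.0035 (SE 0.11, limma adjusted p = 1.0), and without the 2 arrays that stand apart it was -0.10.

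Cdh5 encodes VE-cadherin, the adhesion protein of endothelial adherens junctions. Its brighter probe set had log2 levels of 6.58, 6.54, 6.35, 6.37 and 6.49 in the wildtype arrays, in the same order, and of 6.40, 6.61 and 6.43 in the mutant arrays. These values are intermixed, and the log2 difference was 0.014 (SE 0.08, limma adjusted p = 1.0), or 0.046 without the 2 arrays. The other probe set was dim, at the percentile 18.1 of all mean levels, with log2 levels of 4.66, 4.32, 4.70, 4.60 and 4.41 in wildtype and of 4.37, 4.12 and 4.47 in mutant testis. All 3 mutant values were below the wildtype median of 4.60, and 1 was below the wildtype minimum. Its log2 difference of -0.22 (SE 0.11) had the smallest limma p among the 10, 0.0831 unadjusted and 1.0 adjusted, and it was -0.32 without the 2 arrays. The probe sets of Cdh5 did not follow each other across the 8 arrays, with Pearson's r of -0.54 and Spearman's rho of -0.57 (exact permutation p = 0.17 and 0.151), so no direction is given for Cdh5.

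The receptors were compared next. Kdr, the main VEGF receptor of endothelium, had log2 levels of 7.66, 7.66, 7.73, 7.74 and 7.67 in wildtype and of 7.71, 7.67 and 7.69 in mutant testis. It was the steadiest of the 8 genes, since all arrays lay within 0.09 of each other. The log2 difference was -0.0036 (SE 0.06), and its 95% interval from -0.13 to 0.13 corresponds to a ratio of mutant to wildtype between 0.911 and 1.09. Without the 2 arrays the difference was -0.0072.

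Tek, the receptor of the angiopoietins, had log2 levels of 6.10, 6.12, 5.84, 6.03 and 5.87 in wildtype and of 5.91, 5.79 and 5.79 in mutant testis. Of the 3 mutant values 2 lay below the lowest wildtype value, and mutant replicate 3 lay among wildtype values. The log2 difference was -0.16 (SE 0.08), with an unadjusted limma p of 0.0919 and an adjusted p of 1.0. The exact two-sided permutation test of the 8 arrays gave p = 0.107, where 0.0357 is the smallest the design allows. The 95% interval, from -0.35 to 0.031, corresponds to a ratio between 0.786 and 1.02. Without the 2 arrays the log2 difference was -0.17 (SE 0.10). Tek was lower in mutant under all 16 alternative settings that gave a value, but these reuse the same arrays and some cannot change the difference.

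Tie1, the orphan partner of TEK in the same receptor family, varied most of the 8 genes. Its signal was dim, at the percentile 30.4 of all mean levels, and whether this bears on its spread was not tested. Its log2 levels were 5.47, 5.44, 4.85, 5.04 and 5.21 in wildtype and 5.53, 4.89 and 5.19 in mutant testis. High and low values occurred in both genotypes, with wildtype replicates 1 and 2 and mutant replicate 3 at the top and wildtype replicate 4 and mutant replicate 5 at the bottom. The log2 difference was 0.00041 (SE 0.17, limma adjusted p = 1.0), with a 95% interval from -0.38 to 0.38, which corresponds to a ratio between 0.766 and 1.31. Without the 2 arrays the difference was 0.0092, and leaving out 1 array moved it between -0.16, without mutant replicate 3, and 0.16, without mutant replicate 5.

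Eng encodes endoglin, the co-receptor that presents BMP ligands to the receptor kinase encoded by Acvrl1. Its brighter probe set had log2 levels of 8.13, 8.0, 8.28, 8.18 and 8.02 in wildtype and of 8.18, 8.08 and 8.36 in mutant testis. The highest value was that of mutant replicate 8, and the other values are intermixed. The log2 difference was 0.08 (SE 0.09), and without the 2 arrays that stand apart it was -0.017. The other probe set had log2 levels of 6.72, 6.50, 6.53, 6.65 and 6.61 in wildtype and of 6.73, 6.62 and 6.68 in mutant testis, with a log2 difference of 0.08 (SE 0.07) that was also 0.08 without the 2 arrays. Across the 8 arrays the probe sets of Eng had Pearson's r of 0.28 and Spearman's rho of 0.48 (exact permutation p = 0.5 and 0.243), so they too did not clearly follow each other. Neither passed, at an adjusted limma p of 1.0 for both.

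Vwf, the secreted glycoprotein that tethers platelets to the vessel wall, had log2 levels of 6.08, 6.36, 6.15, 6.18 and 6.41 in wildtype and of 6.17, 6.27 and 6.36 in mutant testis. All mutant values lay inside the wildtype range, and the log2 difference was 0.028 (SE 0.09, limma adjusted p = 1.0). Without the 2 arrays, on which Vwf was highest, it was 0.025.

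Emcn, a sialomucin of capillary and venous endothelium, had log2 levels of 5.31, 5.01, 5.15, 4.95 and 5.30 in wildtype and of 5.13, 4.79 and 4.99 in mutant testis. All 3 mutant values were below the wildtype median of 5.15 and 1 was below all wildtype values. The log2 difference was -0.18 (SE 0.11, unadjusted limma p = 0.139, adjusted p = 1.0), and the exact two-sided permutation test gave p = 0.214. Its 95% interval from -0.42 to 0.07 corresponds to a ratio between 0.746 and 1.05. The difference was -0.15 without the 2 arrays. Leaving out 1 array at a time moved the difference between -0.26, without mutant replicate 3, and -0.09, without mutant replicate 5. Emcn was dim, at the percentile 28.4 of all mean levels.

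**Figure D2:**
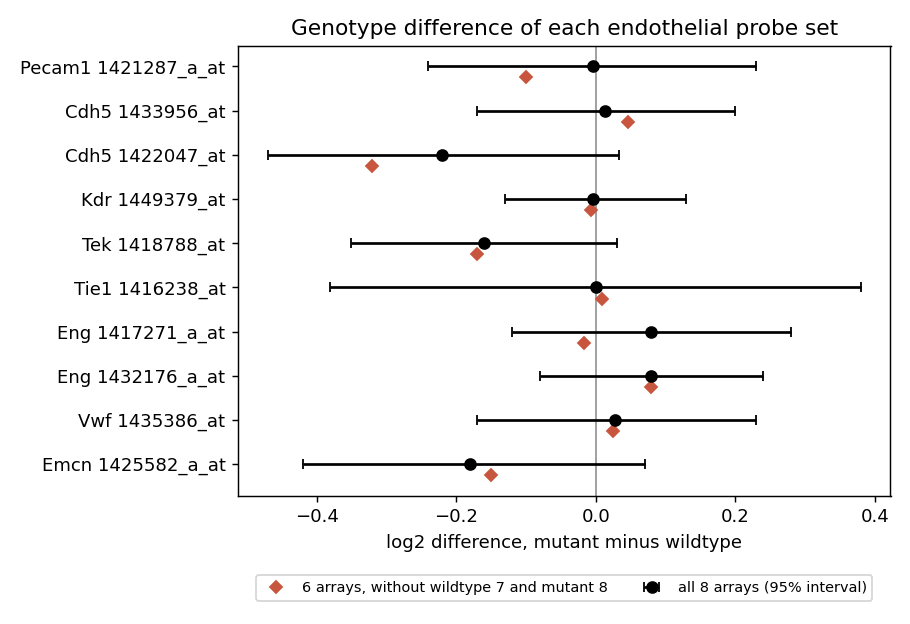
Log2 difference, mutant minus wildtype (x axis), of each of the 10 endothelial probe sets (y axis), with black points and 95% intervals from limma on all 8 arrays and red diamonds for the 6 arrays left without wildtype replicate 7 and mutant replicate 8. Every interval on all 8 arrays includes 0, and the lowest point, at -0.22, is that of the dimmer probe set of Cdh5.

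The endothelial genes were then compared with the tissue markers that set 2 arrays apart. The mean log2 level over the 8 genes lay between 6.20 and 6.39 on the 8 arrays, and was 6.28 in wildtype replicate 7 and 6.30 in mutant replicate 8. The fat list reached 7.30 and 7.25 there and no more than 6.11 elsewhere, and the spermatid list 11.09 and 10.62 against at most 9.15. Of the 10 endothelial probe sets, 1 was above the range of the other 6 arrays on both wildtype replicate 7 and mutant replicate 8, that of Vwf, and 0 were below it on both. Over all probe sets, 8.6% were above that range on both arrays and 10.3% below it. Vwf stood at 6.41 on wildtype replicate 7, while mutant replicate 8 equalled the highest of the other 6 arrays, 6.36, to the digits printed. Pecam1 was below that range on wildtype replicate 7 alone, at 5.29 against 5.47. The main probe set of Eng was above it on mutant replicate 8 alone, at 8.36 against 8.28.

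**Figure D3:**
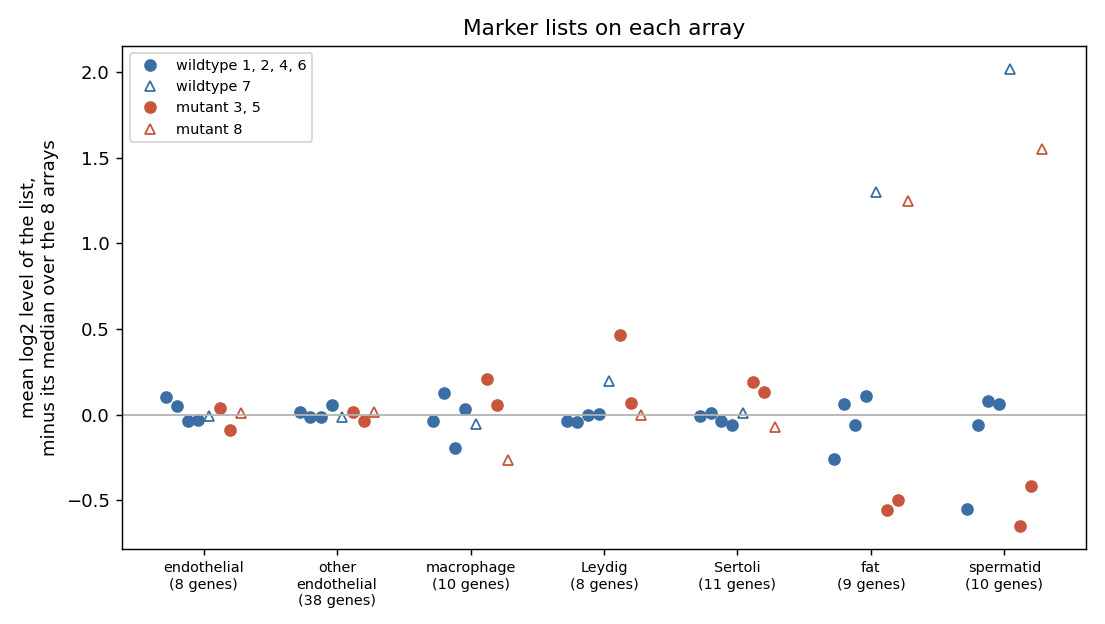
Mean log2 level of each marker list minus its median over the 8 arrays (y axis), with 1 point per array in blue for wildtype and red for mutant and open triangles for wildtype replicate 7 and mutant replicate 8. The endothelial lists stay near 0 on all arrays, whereas the fat and spermatid lists are highest on the 2 arrays shown as triangles.

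Markers of cells that share some of these genes or their place in the interstitium were counted in the same fit, with 1 main probe set per gene. The macrophage list had a mean log2 level of 7.10 to 7.42 in wildtype and of 7.03 to 7.50 in mutant testis, with 9 of 10 genes higher and 1 lower in mutant and a median difference of 0.02. The platelet list ranged from 6.38 to 6.54 and from 6.40 to 6.43, with 2 of 6 higher and a median of -0.006. The pericyte list, for the cells that wrap capillaries, ranged from 6.60 to 6.69 and from 6.61 to 6.74, with 6 of 9 higher and a median of 0.011, and the lymphatic list from 5.98 to 6.17 and from 6.11 to 6.15, with 2 of 5 higher and a median of -0.0011. The Leydig list had 7 of 8 genes higher and a median of 0.15, and its highest level, 8.99 on mutant replicate 3, compares with at most 8.72 in wildtype. The Sertoli list had 10 of 11 higher and a median of 0.10. The peritubular list had 4 of 7 higher and a median of 0.07, and the red cell list 1 of 5 higher and a median of -0.08. Their markers Acta2 and Hba-a1 were read from dim probe sets, at the percentiles 16.2 and 21.4 of all mean levels. Only 5 of the 10 listed red cell genes were measured, without Hba-a2 and the beta-globin (Hbb) genes. In mutant testis 7 of 9 spermatogonia genes were higher (median 0.10), 7 of 9 spermatocyte genes lower (-0.09), all 10 spermatid genes lower (-0.14) and 6 of 9 fat genes lower (-0.06). Without the 2 arrays that stand apart, several of these medians moved further from 0, to 0.13 for macrophage, 0.31 for Leydig, 0.16 for Sertoli, 0.18 for spermatogonia, -0.32 for spermatid, -0.22 for fat and -0.04 for lymphatic genes, and that of platelets turned to 0.0026. No gene of these lists passed an adjusted p of 0.05, and the part of these cells in the endothelial values was not tested.

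A further 40 endothelial genes were examined, of which 38 had a probe set. In mutant testis 20 were higher and 18 lower, 0 passed an adjusted p of 0.05 with limma, and the median log2 difference was 0.0028, or -0.012 without the 2 arrays. The probe sets with the highest signal are given with their difference on all 8 arrays and without the 2 arrays that stand apart. The sialomucin Cd34 differed by 0.015 (SE 0.14) and by 0.11 without them. The thrombin receptor thrombomodulin (Thbd) differed by -0.025 (SE 0.13) and turned to 0.08. The lectin-like receptor Cd93 differed by -0.16 (SE 0.11) and by -0.07, and the arterial transcription factor Sox17 by -0.13 (SE 0.12) and by -0.05. Cldn5, next in signal, differed by -0.0069 (SE 0.09) and turned to 0.042, and Egfl7 differed by -0.10 (SE 0.09) and by -0.10. Among these genes only the difference of Egfl7 thus held its size on the 6 arrays. At an unadjusted limma p under 0.05 there were 2 of 38, where all probe sets gave 3.47%, and both were named after their values were seen. Sox18, a transcription factor of developing vessels, was at 7.02 ± 0.09 (SD, n = 5) in wildtype and at 7.20 ± 0.08 (SD, n = 3) in mutant testis. Tm4sf1, a tetraspanin-like surface protein, was at 7.39 ± 0.06 (SD, n = 5) in wildtype and at 7.54 ± 0.02 (SD, n = 3) in mutant testis and was the 1 gene of the 38 whose groups did not overlap, beside 2.7% of all probe sets. The differences were 0.18 (SE 0.07) for Sox18 and 0.15 (SE 0.06) for Tm4sf1, and 0.20 and 0.13 without the 2 arrays. Neither gene passed the adjustment, at an adjusted p of 1.0.

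The ligands, co-receptors and signal partners of the 8 genes were ordered by receptor. Of 11 genes of the VEGF pathway 6 were higher and 5 lower in mutant testis, with a median difference of 0.003, or -0.06 without the 2 arrays. They included the phospholipase Plcg1, which KDR activates, at -0.09 (SE 0.06; -0.10 without the 2 arrays), and the co-receptor neuropilin Nrp1 at -0.21 (SE 0.12), the lowest of this list. Nrp1 was at 7.58 on mutant replicate 8 and its difference was -0.06 without the 2 arrays that stand apart. Next in signal, Shb, Vegfd, Pgf and Sh2d2a were all higher in mutant testis. They differed by 0.05 (SE 0.09), 0.003 (SE 0.20), 0.07 (SE 0.12) and 0.11 (SE 0.09). Without the 2 arrays these were 0.09, 0.26, -0.06 and 0.08. Of 7 genes of the angiopoietin pathway 4 were higher and 3 lower, with a median of 0.031 that turned to -0.013 without the 2 arrays. The transcription factor Foxo1, held in check by TEK signalling, differed by 0.05 (SE 0.08) and the ligand Angpt4 by -0.03 (SE 0.07). The phosphatase Ptprb, which acts on TEK, was at 7.44 ± 0.10 (SD, n = 5) in wildtype and at 7.56 ± 0.01 (SD, n = 3) in mutant testis, a difference of 0.12 (SE 0.07), the highest of this list, and it did not pass the test.

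Of 13 genes around endoglin, 7 were higher and 6 lower, with a median of 0.03, or 0.0077 without the 2 arrays. The signal transducer Smad1 differed by -0.049 (SE 0.07) and the TGF-beta receptor Tgfbr1 by -0.07 (SE 0.08), and without the 2 arrays both changed sign, to 0.0049 and 0.0077. The BMP receptor Bmpr2 differed by 0.08 (SE 0.08) and by 0.16 without them. Smad6 differed by -0.18 (SE 0.16), the lowest of this list, and by -0.37 without the 2 arrays. The 7 partners of VE-cadherin, which are made in many testis cells, had 5 higher and 2 lower and a median of 0.06, with beta-catenin (Ctnnb1) at -0.0038 (SE 0.09), or 0.048 without the 2 arrays. Of 7 genes that bind Von Willebrand factor or serve its storage and release, 5 were higher and 2 lower, with a median of 0.029 that turned to -0.011 without the 2 arrays. Among them were the granule proteins Sytl4, at 0.19 (SE 0.09) and 0.26 without the 2 arrays, and Rab27a, at 0.029 (SE 0.09) and -0.025. Coagulation factor F8, which circulates bound to Von Willebrand factor, had an unadjusted limma p of 0.0371 and an adjusted p of 1.0, with wildtype levels of 5.16 ± 0.09 (SD, n = 5) and mutant levels of 5.36 ± 0.14 (SD, n = 3), and was named after its values were seen. It was the 1 gene of these lists with an unadjusted p under 0.05, where all probe sets gave 3.47%. No gene of these lists passed an adjusted p of 0.05.

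**Figure D4:**
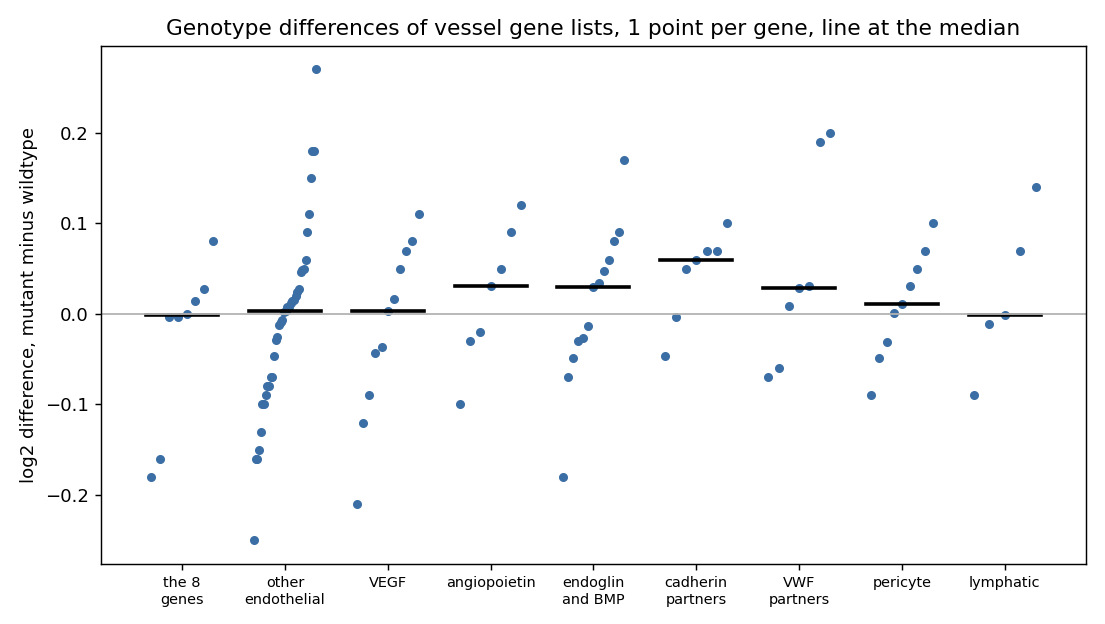
Log2 difference, mutant minus wildtype (y axis), of the main probe set of each gene in 9 vessel gene lists (x axis), with 1 point per gene and a line at the list's median. The medians lie between -0.0016 for the 8 endothelial genes and 0.06 for the partners of VE-cadherin, and single genes between -0.25 and 0.27.

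Whether the 8 genes rose and fell together between testes was examined over the 28 pairs of main probe sets. Only 12 of the 28 pairs had a positive Pearson's r across the 8 arrays, the median r was -0.08, and r ranged from -0.87 to 0.58. By the exact permutation test 0 pairs passed 0.05 after adjustment over the 28, with a smallest adjusted p of 0.152 for Pearson's r and 0.128 for Spearman's rho. The highest r was that of the receptor pair Tek and Tie1, with r = 0.58 and rho = 0.57 (exact permutation p = 0.132 and 0.151, adjusted 0.836 and 0.761). It was 0.22 without the 2 arrays farthest from the median of Tek and 0.67 without wildtype replicate 7 and mutant replicate 8. The lowest was that of Cdh5 and Kdr, with r = -0.87 and rho = -0.90 (exact permutation p = 0.00543 and 0.00456, adjusted 0.152 and 0.128). It remained negative without the 2 arrays farthest from the median of Cdh5, at -0.93. Since Kdr spans 0.09 in all, this opposite course concerns a very small range. It was measured with the brighter probe set of Cdh5 alone, which the other did not follow (Pearson's r of -0.54 between them). The arrays at the extremes differed from gene to gene as well, and no array held the highest value for more than 2 of the 8 genes or the lowest for more than 2. No common course of the 8 genes was detectable over these arrays, and their mean is given only as a summary.

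**Figure D5:**
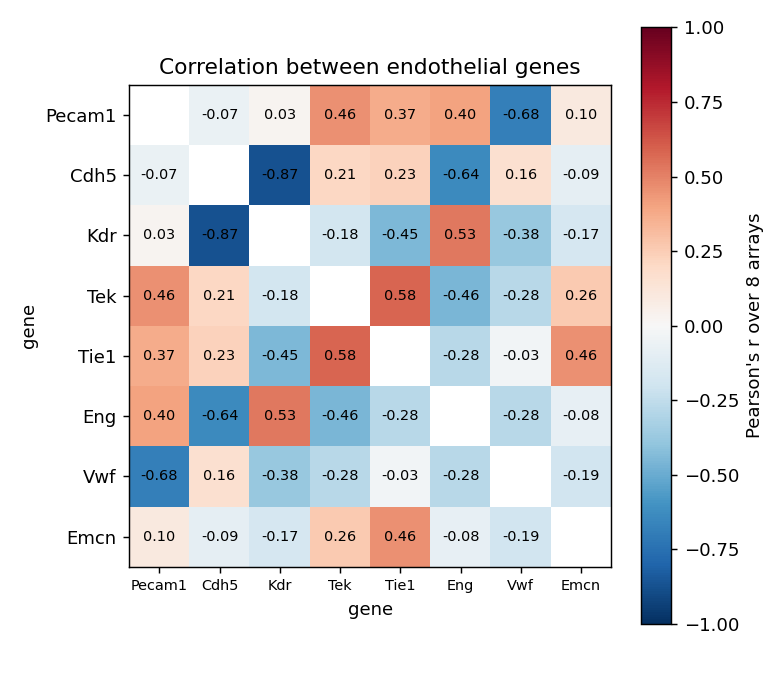
Pearson's r across the 8 arrays for each pair of the 8 endothelial genes (both axes, 1 main probe set per gene; the colour scale runs from -1 in blue to 1 in red). Positive and negative pairs are mixed, from -0.87 for Cdh5 with Kdr to 0.58 for Tek with Tie1.

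The genes most like the mean of the 8, each centred on its own mean, were sought among 12197 other genes with a main probe set above the median level. The closest were Exosc6, a subunit of the RNA exosome, with r = 0.96 over the 8 arrays and 0.98 over the 6, Pdcd7 (0.95 and 0.96), Alg3 (0.95 and 0.96), Mfap4 (0.95 and 0.95), Pla2g15 (0.95 and 0.95) and Ttc28 (0.94 and 0.96). They were chosen for their r, which is a description. Among the 14 other endothelial genes above that level, the highest r was that of Cd93, at 0.58 over the 8 arrays and 0.87 over the 6, followed by Cd34 at 0.52 and 0.64. The lowest was that of Myct1, at -0.66 and -0.86, and Cldn5 was at -0.33 and -0.81. Since the closest genes are the extremes of all those searched, the endothelial values cannot be read against them.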

How the data were processed

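Total RNA of testis at postnatal day 23 (5 wildtype, 3 Ctcfl mutant samples) was hybridised to Mouse430_2 arrays. Per the labels and the study's methods, the authors corrected the background by RMA and normalised by quantiles. The deposited table holds log2 levels per probe set and array, whose sorted values differ by at most 0.113 between arrays. Versions and the annotation build are not given in the sources used here. The authors' own comparisons (group means, fold changes and p-values) were not used. Detection calls were not used here. Precision is limited by how many arrays there are.

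All 45101 probe sets were fitted without a filter in limma 3.58.1 under R 4.3.3 (lmFit, then eBayes), with genotype alone, two-sided, and Benjamini-Hochberg adjustment at 0.05. The fit was tested on simulated data. Single values were also tested by exact permutation (scipy 1.17.1). Entrez IDs matched a RefSeq gene table (GRCm38.p6) for 91.1% of probe sets with a single ID, and probe sets with several IDs were left out of lists. The main probe set of a gene is that without an _s_at or _x_at suffix, then the highest mean level. In lists, genes are named from the 6 with the highest signal unless stated otherwise.

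The members and lists were chosen with earlier results of these data known. Alternatives were leaving out each array, leaving out wildtype replicate 7 and mutant replicate 8, the same 2 arrays as a block (defined from expression values, named by no label), median centring, repeated quantile normalisation, a robust prior with an intensity trend, array weights, a comparison with the variance of each probe set alone, probe sets above the median level, no control probe sets, an unadjusted threshold and other probe sets.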

Additional observations from a re-analysis of the deposited data

How the results depend on the processing

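No paired analysis was possible, because the labels name no litter or pair and the replicate numbers run on through both genotypes. The study's text speaks of littermates, and litter was not modelled. With limma 0 probe sets reached an adjusted p under 0.05, and leaving out 1 array gave 0 to 0. The pair of arrays as a block gave 1, no endothelial gene, and an unadjusted p of 0.05 gave 1564 (1220 to 2649 leaving out 1 array, the highest without mutant replicate 8). The median difference ranged from -0.031 to 0.045 over the alternatives for the 10 probe sets, and from -0.025, without mutant replicate 3, to 0.02, without wildtype replicate 2, leaving out 1 array. For the 8 main probe sets these were -0.031 to 0.02 and -0.025 to 0.02. Each stayed within 1 SD of the wildtype arrays.

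Tek and Emcn kept their direction under all 16 alternatives each, with adjusted p of at least 0.81 and 0.85. The robust prior with a trend, the comparison with each probe set's own variance and the removal of control probe sets cannot change a difference. The other settings reuse the same arrays, so the count of 16 does not measure support for a direction. Each of the other 6 genes changed sign under some alternative. Eng, at 0.08 on all 8 arrays, did so under 1 of 19, and the rest have differences near 0. Eng reversed to -0.017 leaving out the 2 arrays, Pecam1 to 0.019 with the block, Tie1 to -0.0037 with median centring and to -0.06 with array weights, and Cdh5 to -0.22 for its other probe set and to -0.10 for the mean of both. Leaving out 1 array, the differences ranged from -0.08 to 0.05 for Pecam1, -0.05 to 0.05 for Cdh5, -0.013 to 0.0093 for Kdr, -0.16 to 0.16 for Tie1, -0.018 to 0.08 for Vwf, 0.0078 to 0.15 for Eng, -0.20 to -0.13 for Tek and -0.26 to -0.09 for Emcn. The cause was not tested. Of the 10 probe sets 6 lie below the median level of all probe sets, and whether their signal is above background was not tested.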

Other observations

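Pecam1 and Emcn, 2 dim probe sets of surface proteins, followed each other closely on the 6 arrays without wildtype replicate 7 and mutant replicate 8. Pearson's r was 0.97 and Spearman's rho 0.94 over these 6 arrays (exact permutation p = 0.00278 and 0.0167, adjusted over the 28 pairs 0.0778 and 0.467), so neither passed. Over all 8 arrays r was 0.10. Wildtype replicate 7 had the lowest Pecam1 level of all, 5.29, and an Emcn level of 5.30, close to the highest, 5.31. The pair was noticed after the values were seen.

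Among the 5 wildtype arrays, 11 measures (the 10 probe sets and the mean of the 8 genes) were searched for an outlying array by Dixon's criterion (0.71), and 0 met it.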
